A study of Arabidopsis thaliana with 102 samples.

Results

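The 150 genes described here were those that Arabidopsis seedlings induced late, and kept induced, during recovery from endoplasmic reticulum (ER) stress. They were chosen by their FPKM in wild-type Col-0, from a table of 34133 genes. The response at each time-point was taken as the mean log2(FPKM + 1) after tunicamycin (Tm) minus that after DMSO, where FPKM is fragments scaled to transcript length and to the number of mapped reads. The 32059 genes whose response at 0 h lay within 0.5 of 0 were ranked by the smaller of their responses at 12 and 24 h, and the first 150 were kept. The last genes inside the limit were TET8, CNGC10 and PER4, the last of them with a ranking value of 2.38. The first genes outside it were AT5G44820, RLP34 and ACS6, the first of these with 2.36. The Col-0 responses are therefore a description of the choice and were not tested. Responses in the mutants were tested, because no mutant library entered the rule.

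Seedlings of bzip60-2, bzip28-2 and Col-0, grown for 5 days, were held for 6 h in Tm at 500 ng/mL or in DMSO as mock treatment, and then moved to Tm-free medium. After 0, 12 or 24 h of recovery whole seedlings were taken, in 3 replicates of 12 pooled seedlings for each of the 18 groups of genotype, treatment and time-point, which gave 54 RNA-seq libraries. The allele bzip60-2 is a T-DNA insertion in bZIP60 and bzip28-2 is a T-DNA insertion in bZIP28. ChIP-seq was made on GFP-bZIP28 driven by the 35S promoter in Col-0, and on GFP-bZIP60 driven by its own promoter in bzip60-2, so that the bZIP28 fusion was made constitutively.

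Tm blocks N-glycosylation of proteins in the ER, and the misfolded proteins that pile up there set off the unfolded protein response (UPR). In Arabidopsis, bZIP28 is released from the membrane by proteolysis and bZIP60 is made from an mRNA spliced by IRE1, and both then act as transcription factors on genes for ER chaperones through promoter elements such as ERSE-I. The ER also folds the receptors and secreted proteins of plant immunity, in which salicylic acid, camalexin and WRKY transcription factors have well-known parts. WRKY factors bind the W-box, whose core is TTGAC, and TGA-type bZIP factors bind the as-1 element, whose core is TGACG.

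Many of the 150 genes belong to such immune families. By the product names of the reference annotation, grouped after the values had been seen, 19 of them (12.67%) encoded receptor-like kinases or receptor-like proteins, against 1.31% of the 21864 genes tested, those that passed an FPKM of 1 in some library. A further 8 (5.33%, against 0.5% of those genes) encoded calcium-binding or calmodulin-binding proteins. Cyclic nucleotide gated channels and glutamate receptors, which carry ions across membranes, counted 6 (4.0% against 0.14%). Resistance proteins of TIR, NBS or RPW8 type, a group that includes intracellular immune receptors, counted another 6 (4.0% against 0.74%). There were 5 WRKY factors (3.33% against 0.28%) and 6 cytochromes P450 (4.0% against 0.77%). Glutathione S-transferases counted 5 (3.33% against 0.23%) and FAD-binding berberine enzymes 3 (2.0% against 0.08%). None was named a chaperone or disulfide isomerase (1.18% of the 21864) or a ribosomal protein (1.47%). At shares this low, that absence says little about the 150 genes. The rule also left out every gene with a Col-0 response beyond 0.5 at 0 h, and so any gene that responded early. These shares were not tested, since the genes had been chosen for their expression.

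Promoters of 5 of the genes are shown, chosen after the motifs had been counted, because they hold several copies of the W-box or the as-1 core, which were the most common of the motifs searched in the 150 promoters. They are the 250 bases before the RefSeq gene start (TAIR10.1, all on the minus strand of the chromosome, written 5′ to 3′ along the gene), at chr4:12143859-12144108 for CRK11, chr1:27749249-27749498 for SARD1, chr1:9128569-9128818 for AT1G26380, chr3:7846834-7847083 for PCC1 and chr3:7855815-7856064 for AT3G22235. In the first 3, capitals mark TTGAC or its complement GTCAA, and in the last 2 they mark TGACG or its complement CGTCA.
CRK11: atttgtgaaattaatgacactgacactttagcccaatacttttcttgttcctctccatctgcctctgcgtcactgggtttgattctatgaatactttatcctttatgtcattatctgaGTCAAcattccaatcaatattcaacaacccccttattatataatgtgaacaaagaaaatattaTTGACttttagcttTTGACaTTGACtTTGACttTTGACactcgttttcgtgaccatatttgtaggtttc
SARD1: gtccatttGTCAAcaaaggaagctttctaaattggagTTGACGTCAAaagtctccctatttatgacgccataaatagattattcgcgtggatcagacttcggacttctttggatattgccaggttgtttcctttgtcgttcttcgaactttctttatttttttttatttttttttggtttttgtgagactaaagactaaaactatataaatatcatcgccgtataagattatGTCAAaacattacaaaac
AT1G26380: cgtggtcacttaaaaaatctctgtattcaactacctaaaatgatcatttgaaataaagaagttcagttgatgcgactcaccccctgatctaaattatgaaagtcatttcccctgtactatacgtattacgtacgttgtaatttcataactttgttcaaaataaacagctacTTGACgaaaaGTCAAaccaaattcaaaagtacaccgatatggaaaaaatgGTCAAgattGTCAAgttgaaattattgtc
PCC1: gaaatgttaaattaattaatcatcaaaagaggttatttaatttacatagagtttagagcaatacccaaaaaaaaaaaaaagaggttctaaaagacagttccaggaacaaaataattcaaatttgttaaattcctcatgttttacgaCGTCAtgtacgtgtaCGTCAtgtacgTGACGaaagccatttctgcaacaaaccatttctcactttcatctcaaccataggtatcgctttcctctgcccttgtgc
AT3G22235: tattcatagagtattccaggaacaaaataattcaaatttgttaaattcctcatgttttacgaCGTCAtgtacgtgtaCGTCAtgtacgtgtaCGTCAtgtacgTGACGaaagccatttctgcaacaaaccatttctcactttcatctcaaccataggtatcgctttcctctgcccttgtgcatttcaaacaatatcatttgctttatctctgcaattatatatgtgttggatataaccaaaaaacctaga
CRK11, which encodes a cysteine-rich receptor-like kinase, had 6 W-box cores, of which the nearest lay 31 bases before the gene start. SARD1, a regulator of salicylic acid synthesis, had 4, and AT1G26380, a berberine enzyme, had 4. PCC1, a small gene named for its control by pathogens and the circadian clock, had 3 as-1 cores and its neighbour AT3G22235 had 4, with no W-box core in the 1000 bases before either gene. These last promoters share an unbroken run of 105 identical bases that holds 3 as-1 cores. PCC1 and AT3G22235 lie near each other on the same strand, and how counting divided reads between such similar genes was not given in the sources used here, so their separate levels are uncertain.

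**Figure D1:**
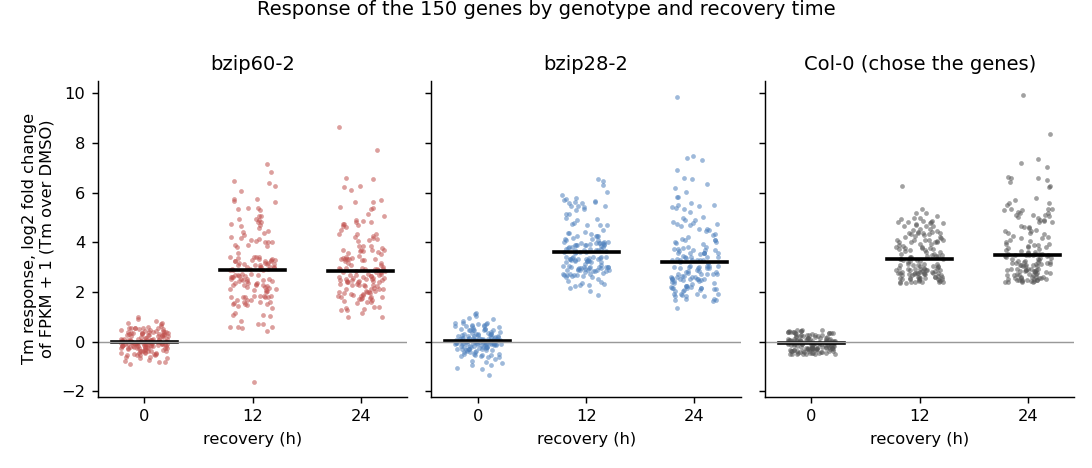
Tm response (log2 fold change of FPKM + 1, Tm over DMSO, vertical axis) of each of the 150 genes (points) at 0, 12 and 24 h of recovery in bzip60-2, bzip28-2 and Col-0, with the median of the 150 genes as a black bar. The medians lie at -0.02, 2.90 and 2.83 in bzip60-2 and at 0.01, 3.59 and 3.19 in bzip28-2, and the Col-0 values are those that chose the genes.

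Both mutants induced nearly all of the genes. In bzip60-2 the median log2 fold change of the 150 genes was -0.02 at 0 h, 2.90 at 12 h and 2.83 at 24 h. In bzip28-2 it was 0.01, 3.59 and 3.19 at the same time-points. The Col-0 medians, from the libraries that chose the genes, were -0.07, 3.32 and 3.48. Over all 21864 genes the median response in each of these groups lay between -0.06 and 0.11.

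Genes were called by limma where the adjusted p was under 0.01 and the log2 fold change beyond 1 in either direction. On this rule 134 of the 150 genes were higher after Tm in bzip60-2 at 12 h, where 8.08% of all genes tested were. At 24 h it was again 134 in bzip60-2, against 5.36% of all genes. In bzip28-2 the counts were 149 at 12 h, against 8.65% of all genes, and 135 at 24 h, against 3.93%. None of the 150 was called lower at either time-point, where 6.13% and 0.974% of all genes were called lower in bzip60-2 and 5.76% and 1.8% in bzip28-2. With p under 0.05 before adjustment, limma counted 1 of the 150 as lower in bzip60-2 at 12 h and 0 in the other 3 comparisons. Of the 150 genes, 111 were called in all 4 comparisons, 31 in 3, 7 in 2 and 1, PCC1, in 1. The share of all genes called higher in all 4 cannot exceed 3.93%, the share in bzip28-2 at 24 h.

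At 0 h, directly after Tm, limma called none of the 150 genes in either mutant. Of all genes, 0.512% were called higher and 0.338% lower at that time in bzip60-2, and 0.938% and 0.581% in bzip28-2. At an unadjusted p under 0.05, 18 genes were higher and 16 lower in bzip60-2 (6.06% and 13.1% of all genes), and 13 were higher and 7 lower in bzip28-2 (15.5% and 13.3%). At background shares this low, the absence of calls at 0 h says little about the 150 genes. Of 17 ER chaperones and foldases, none of them among the 150, 16 were called higher in bzip60-2 and 13 in bzip28-2 at 0 h, with median log2 fold changes of 2.23 and 2.11.

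The rise after 0 h was tested within each mutant as the difference of its responses at 12 and 0 h. It was called (limma, adjusted p under 0.05) for 137 of the 150 genes in bzip60-2 (14.7% of all genes) and for 149 in bzip28-2 (18.5%), all towards a larger response at 12 h.

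**Figure D2:**
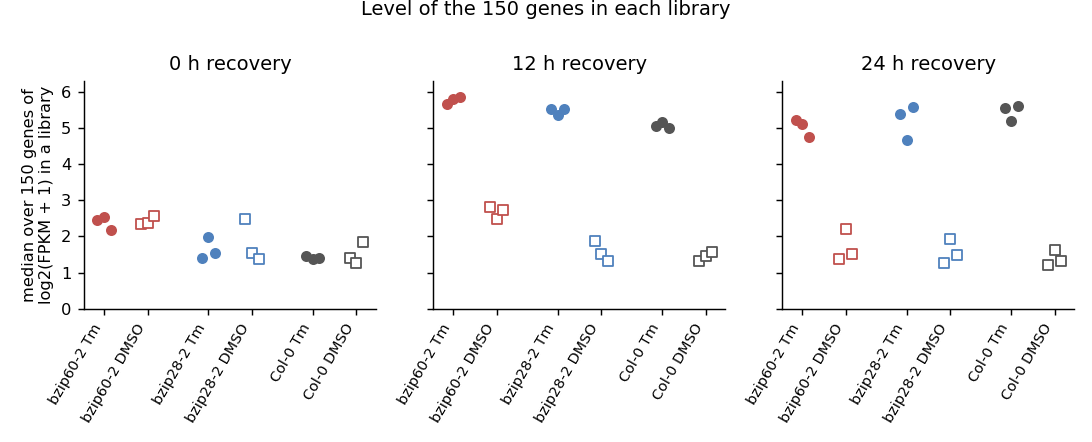
Median of log2(FPKM + 1) over the 150 genes (vertical axis) in each library, with Tm libraries as filled circles and DMSO libraries as open squares, at 0, 12 and 24 h of recovery. Every Tm library lies above every DMSO library at 12 and 24 h, and the DMSO libraries of bzip60-2 lie higher at 12 h (2.49 to 2.80) than those of bzip28-2 (1.33 to 1.87).

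Single libraries stood apart over the 150 genes, and the same order was not counted over all genes. At 24 h after Tm, replicate 3 of bzip60-2 was the lowest of its group for 133 of the 150 genes, with a median log2(FPKM + 1) of 4.74 against 5.22 and 5.12. Replicate 2 of bzip28-2 was the lowest of its group for 127 genes, with 4.68 against 5.39 and 5.58. Among mock libraries, replicate 2 of bzip60-2 at 24 h was the highest for 117 genes and replicate 1 of bzip28-2 at 0 h for 132. Without Tm replicate 3 of bzip60-2 the 24 h count of called genes in that mutant was 118, and without DMSO replicate 2 it was 144. It was 79, 74 and 84 without Tm replicate 1, Tm replicate 2 and DMSO replicate 3. In bzip28-2 the 24 h count was 144 without Tm replicate 2, but 18 and 78 without Tm replicates 1 and 3, and 32, 75 and 24 without DMSO replicates 1, 2 and 3. The 24 h counts depended on single libraries, whereas the 12 h counts stayed between 114 and 133 in bzip60-2 and between 145 and 150 in bzip28-2. The shares of all genes called without each library are not given here, so these changes in count are not read as particular to the 150 genes. Leaving out DMSO replicate 1 of bzip28-2 at 0 h left its 0 h count at 0.

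The summed FPKM per library was between 819066 and 918448, and the 10 most abundant genes took 5.16% to 11.4% of it. Relative depth, read from the spacing of low FPKM values, lay between 0.829 and 1.26 of the typical library, with 67.6% of 71983 low values no more than 0.1 from whole multiples of the spacing, where an even spread would give 20%. Transcripts of the targeted genes were still measured in the mutants: bZIP60 averaged 110.1 FPKM after Tm and 34.2 FPKM after DMSO at 0 h in bzip60-2, against 209.8 and 35.3 FPKM in Col-0, and bZIP28 averaged 26.4 and 24.7 FPKM in bzip28-2, against 16.6 and 11.1 FPKM in Col-0. Levels of these transcripts therefore do not check the labels. Seedling tissue markers were present at 12 and 24 h, with none of 5 leaf and 6 root markers at 0 in any library. At 12 h the 6 root markers summed to 1522 to 1827 FPKM after Tm and 3120 to 4621 FPKM after DMSO in bzip60-2, and to 1331 to 1562 and 2805 to 3224 FPKM in bzip28-2, where 2 and 6 of them were called lower. The 5 leaf markers summed to 6551 to 13950 FPKM after Tm and 24670 to 31850 FPKM after DMSO in bzip60-2, and to 12960 to 20780 and 29640 to 36720 FPKM in bzip28-2, where 0 and 1 of them were called lower. At 24 h the root markers summed to 2027 to 2427 FPKM after Tm and 3167 to 3795 FPKM after DMSO in bzip60-2 (1 called lower), and to 1466 to 1687 and 3135 to 4097 FPKM in bzip28-2 (3 called lower). The leaf markers then summed to 11220 to 20920 and 23950 to 43830 FPKM in bzip60-2, and to 6113 to 22720 and 25200 to 44740 FPKM in bzip28-2, with none called. Whether tissue make-up moved with the responses of the 150 genes was not tested, and in whole seedlings a change in the number of cells of a type cannot be told apart from a change in RNA per cell.

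The leading gene by the rule was AT1G57630, which encodes a TIR-domain protein. At 12 h it had 246, 276 and 328 FPKM after Tm in bzip60-2, against 13.4, 6.84 and 11.1 FPKM after DMSO. The bzip28-2 libraries had 213, 153 and 211 FPKM after Tm, against 2.6, 1.01 and 0.374 FPKM after DMSO. Tm and DMSO libraries were far apart in both mutants, and the mock level was the higher in bzip60-2. The log2 fold changes were 4.67 (SE 0.25) in bzip60-2 and 6.47 (SE 0.37) in bzip28-2, with limma adjusted p of 0.000196 and 0.000112.

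ABCG40, a plasma membrane transporter known to take up abscisic acid, ranked next. Its FPKM at 12 h was 267, 547 and 340 after Tm in bzip60-2, against 1.91, 1.1 and 1.83 after DMSO. It was 230, 198 and 266 after Tm in bzip28-2, against 1.28, 1.46 and 1.71 after DMSO, and 88.2, 92.5 and 83 after Tm in Col-0, against 1.17, 1.01 and 1.33 after DMSO. Every Tm library of the mutants lay above every Tm library of Col-0 at this time, an order that was not tested. The responses were 7.15 (SE 0.29) in bzip60-2 and 6.54 (SE 0.13) in bzip28-2.

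Glutathione S-transferases, which couple glutathione to reactive compounds, included the most abundant of the 150 genes by FPKM after Tm at 12 h. GSTF7 had 6179, 9046 and 7891 FPKM at 12 h after Tm in bzip60-2, against 290, 200 and 279 FPKM after DMSO. For bzip28-2 the values were 6234, 5243 and 5752 FPKM after Tm, against 122, 166 and 80.1 FPKM after DMSO. Its tandem neighbour GSTF6, which also acts in camalexin synthesis, started higher. GSTF6 had 6125, 9317 and 8103 FPKM after Tm in bzip60-2 at 12 h, against 892, 989 and 995 FPKM after DMSO, and 7532, 6141 and 6558 FPKM in bzip28-2, against 712, 731 and 508 FPKM. Both genes rose in both mutants at 12 and 24 h (limma), by 3.01 to 5.81 on the log2 scale, although reads may have been shared between such close copies. AT5G44990, GSTF2 and GSTU11 completed the family, with log2 fold changes of 2.68 to 5.67 over the mutants at 12 and 24 h. Of 30 tau and phi glutathione transferases listed, which include 4 of the 150 genes, 10 were higher and 3 lower in bzip60-2 at 12 h, and 12 were higher and 3 lower in bzip28-2.

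The enzymes of camalexin, the main phytoalexin of Arabidopsis, rose in both mutants. CYP71A12 and CYP71A13 are close copies that make indole-3-acetonitrile, and PAD3 carries out the final step. CYP71A12 had 309, 300 and 321 FPKM at 12 h after Tm in bzip60-2, against 4.46, 4.65 and 5.18 FPKM after DMSO. In bzip28-2 it had 161, 151 and 152 FPKM, against 4.78, 5.75 and 3.87 FPKM. The Tm libraries of bzip60-2 lay above those of bzip28-2 and the mock libraries overlapped. PAD3 had 159, 256 and 232 FPKM after Tm in bzip60-2, against 11.9, 6.41 and 10.3 FPKM after DMSO, and 166, 174 and 149 FPKM in bzip28-2, against 5.38, 5.56 and 5 FPKM. The 4 camalexin genes among the 150 had median responses at 12 and 24 h of 4.88 and 5.14 in bzip60-2 and of 4.73 and 5.00 in bzip28-2, with 4.47 and 5.40 in Col-0. Of the 8 listed camalexin genes, 7 were called higher at 12 h and 6 at 24 h in each mutant, and none was lower. NAC042, a NAC transcription factor linked to longevity and camalexin, rose alongside by 6.26 (SE 0.17) in bzip60-2 and 5.67 (SE 0.12) in bzip28-2 at 12 h (limma).

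The 3 berberine enzymes AT1G26380, AT1G26390 and AT1G26410 lie close together on chromosome 1. AT1G26380 had 170, 206 and 195 FPKM at 12 h after Tm in bzip60-2, against 1.95, 3.91 and 3.14 FPKM after DMSO, and 153, 148 and 167 FPKM in bzip28-2, against 2.85, 3.54 and 1.47 FPKM. AT1G26410 had 58.8, 70.8 and 69 FPKM after Tm in bzip60-2, against 0.427, 0.702 and 0.684 FPKM after DMSO, and 59, 52.3 and 62.4 FPKM in bzip28-2, against 0.496, 0.664 and 0.18 FPKM. All 3 rose in both mutants at 12 h (limma), with medians of 5.60 in bzip60-2 and 5.48 in bzip28-2 at 12 h. Across the genome, 10 pairs of the 150 genes followed each other with no other tested gene between them, although untested genes lay within some pairs, and 18 genes belonged to such pairs.

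Salicylic acid genes formed another group. The hormone accumulates after infection and switches on PR genes through NPR1. CBP60G and SARD1 switch on its synthesis, and FMO1 makes the systemic signal N-hydroxypipecolic acid. Their median responses at 12 and 24 h were 2.69 and 3.29 in bzip60-2, 3.90 and 3.82 in bzip28-2, and 3.70 and 3.65 in Col-0. SARD1 had 22.8, 24.8 and 29.4 FPKM at 12 h after Tm in bzip60-2, against 12.1, 4.62 and 8.03 FPKM after DMSO. The bzip28-2 libraries had 21.1, 16.5 and 17.7 FPKM, against 1.86, 0.87 and 0.635 FPKM. Its response was 1.61 (SE 0.32) in bzip60-2 and 3.23 (SE 0.23) in bzip28-2, both called by limma. Of 13 tested genes of salicylic acid synthesis and signalling, 9 in bzip60-2 and 10 in bzip28-2 were higher at 12 h, and 10 were in each mutant at 24 h.

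Genes downstream of salicylic acid had the lowest median response in bzip60-2 at 12 h among the groups of the 150 genes that are described here. The 6 of them among the 150 were PR1, PR2, PCC1, LURP1, SAG13 and WRKY70. Their median response at 12 h was 2.09 in bzip60-2 and 4.76 in bzip28-2, with 4.61 in Col-0, and at 24 h it was 5.17 in bzip60-2 and 5.71 in bzip28-2, with 6.62 in Col-0. Of the 12 listed genes of salicylic acid output, 5 were called higher in bzip60-2 and 9 in bzip28-2 at 12 h, and 11 and 10 at 24 h.

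LURP1, which is needed for basal defence against an oomycete, shows the pattern. At 12 h it had 126, 114 and 55.2 FPKM after Tm in bzip60-2, against 109, 23.5 and 66.7 FPKM after DMSO. For bzip28-2 the values were 104, 80.5 and 65.8 FPKM after Tm, against 8.54, 0.215 and 0.153 FPKM after DMSO, and in Col-0 191, 156 and 131 FPKM, against 1.54, 1.27 and 13.5 FPKM. The Tm and mock libraries of LURP1 overlapped in bzip60-2, whose 3 mock libraries were all above those of bzip28-2. The 12 h response was 0.73 (SE 0.62, limma adjusted p = 0.38) in bzip60-2 and 5.13 (SE 0.86, adjusted p = 0.0046) in bzip28-2. At 24 h, LURP1 had 109, 120 and 79.3 FPKM after Tm in bzip60-2, against 0.934, 2.66 and 0.279 FPKM after DMSO, a response of 5.62 (SE 0.41).

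PCC1 went further and was lower after Tm than after DMSO at 12 h in bzip60-2. It had 39.2, 49.4 and 16.4 FPKM after Tm in that mutant, against 131, 52.7 and 151 FPKM after DMSO, a log2 fold change of -1.64 (SE 0.56, limma adjusted p = 0.058). In bzip28-2 it had 40.2, 40.2 and 23.5 FPKM after Tm, against 17.9, 0.753 and 0.352 FPKM after DMSO, a change of 3.29 (SE 1.04, adjusted p = 0.044). The groups did not overlap in either mutant, yet neither change passed the threshold of 0.01. At 24 h PCC1 was higher after Tm in bzip60-2 by 3.43 (SE 0.23, adjusted p = 0.00077), the only comparison in which it was called. Its neighbour AT3G22235, named here after its values were seen, had 182, 397 and 137 FPKM after Tm in bzip60-2 at 12 h, against 90.7, 96.7 and 336 FPKM after DMSO.

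PR1, the classic marker of salicylic acid signalling, was the gene with the largest response of the 150 at 24 h in all 3 genotypes. It had 1969, 1763 and 1500 FPKM at 24 h after Tm in bzip60-2, against 1.21, 10.4 and 2.18 FPKM after DMSO, and 2060, 2084 and 1912 FPKM in bzip28-2, against 1.4, 1.22 and 0.902 FPKM. At 12 h it had 291, 750 and 423 FPKM after Tm in bzip60-2, against 79.2, 15.3 and 96.8 FPKM after DMSO. The bzip28-2 libraries had 225, 175 and 191 FPKM, against 5.6, 0.991 and 1.14 FPKM. The Tm level at 12 h was thus higher in bzip60-2 in every library, and the mock level was higher too. The 12 h response was 3.17 (SE 0.76, limma adjusted p = 0.0193) in bzip60-2 and 6.02 (SE 0.48, adjusted p = 0.00032) in bzip28-2. PR2, a beta-1,3-glucanase, followed with 1.81 (SE 0.52) and 3.84 (SE 0.40), and SAG13, a senescence-associated dehydrogenase, with 4.20 (SE 0.37) and 5.77 (SE 0.54).

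**Figure D3:**
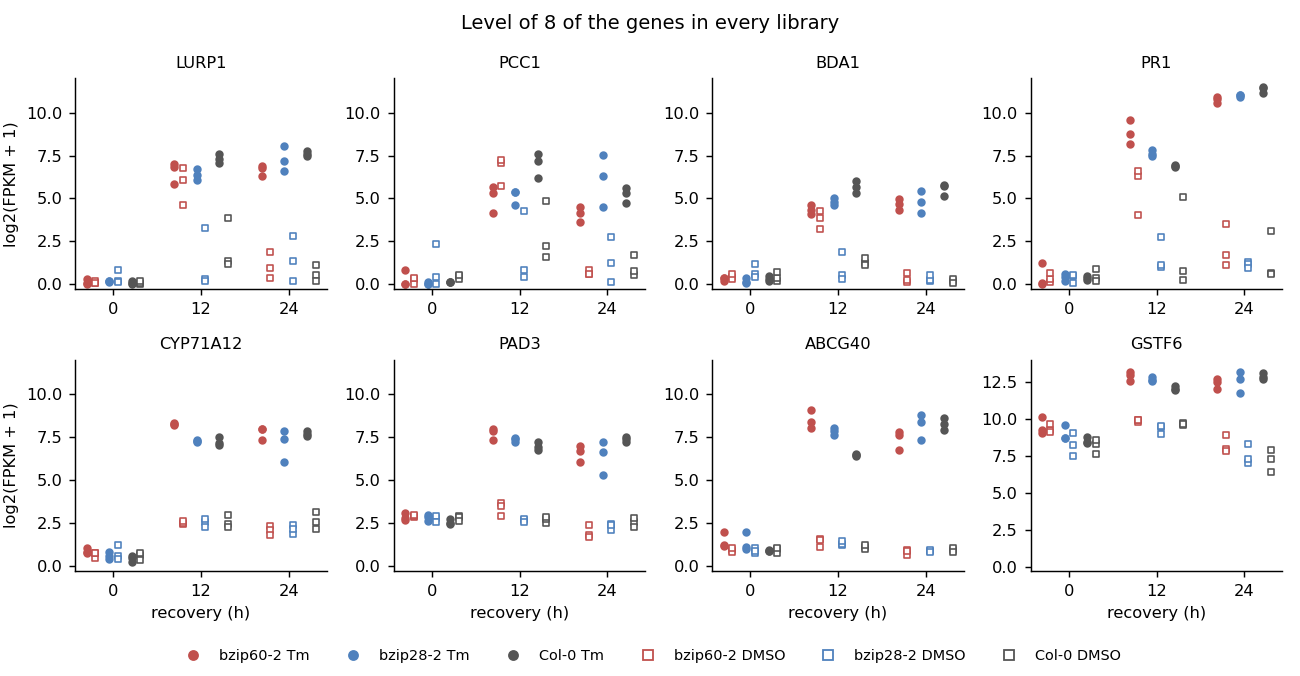
Level of 8 of the genes as log2(FPKM + 1) (vertical axis) in each of the 54 libraries at 0, 12 and 24 h of recovery, with Tm libraries as filled circles and DMSO libraries as open squares. LURP1, PCC1 and BDA1 have raised mock libraries at 12 h in bzip60-2, whereas the mock libraries of CYP71A12 at 12 h lie close together (4.46 to 5.18 FPKM in bzip60-2 and 3.87 to 5.75 FPKM in bzip28-2).

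The WRKY factors fell between these patterns. WRKY70 and WRKY46 act with salicylic acid, WRKY40 is a repressor of immune genes, and WRKY30 and WRKY75 respond to oxidative stress. Their median response at 12 h was 2.37 in bzip60-2 and 3.88 in bzip28-2, with 3.93 in Col-0, and at 24 h it was 3.24, 3.04 and 3.79. WRKY40 had 59.9, 61 and 70.1 FPKM at 12 h after Tm in bzip60-2, against 12.6, 11 and 14.3 FPKM after DMSO. For bzip28-2 the values were 55.4, 45.1 and 49 FPKM, against 3.05, 2.39 and 2 FPKM, and in Col-0 34.7, 53.3 and 33.9 FPKM, against 1.85, 1.51 and 1.66 FPKM. The 3 mock libraries of WRKY40 in bzip60-2 lay above those in bzip28-2, and the Col-0 values are among those that chose the gene. Its response was 2.25 (SE 0.12) in bzip60-2 and 3.87 (SE 0.14) in bzip28-2, both called by limma. WRKY75 showed no such gap, with 4.03 (SE 0.17) in bzip60-2 and 3.88 (SE 0.23) in bzip28-2.

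Receptors made the largest class. The 19 receptor-like kinases and proteins had median responses at 12 and 24 h of 2.53 and 2.39 in bzip60-2 and of 2.97 and 2.48 in bzip28-2, with 2.96 and 2.89 in Col-0. CRK7, a cysteine-rich receptor-like kinase, had 47.4, 58.3 and 50 FPKM at 12 h after Tm in bzip60-2, against 1.45, 0.364 and 0.984 FPKM after DMSO. In bzip28-2 it had 56.6, 43.6 and 49.2 FPKM, against 0.106, 0.159 and 0.146 FPKM. Its responses were 4.81 (SE 0.24) in bzip60-2 and 5.47 (SE 0.12) in bzip28-2 (limma). CRK36, CRK20 and CRK11 rose by 2.45 to 3.97 at 12 h over the mutants. Of 19 listed kinases of this family, 6 were higher and 1 lower in bzip60-2 at 12 h, and 13 were higher and none lower in bzip28-2, and at 24 h 7 and 8 were higher.

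Calcium genes included AT3G47480, which encodes an EF-hand protein, and CML41, a calmodulin-like protein that closes plasmodesmata in immunity. The 8 calcium-binding and calmodulin-binding members had median responses at 12 h of 2.25 in bzip60-2 and 3.61 in bzip28-2. CML41 had 27.3, 28 and 33 FPKM after Tm at 12 h in bzip60-2, against 24.8, 9.01 and 24.2 FPKM after DMSO, and 24.1, 25.3 and 18.2 FPKM in bzip28-2, against 3.51, 2.71 and 1.19 FPKM. The response was 0.70 (SE 0.39, limma adjusted p = 0.20) in bzip60-2 and 2.81 (SE 0.30, adjusted p = 0.00081) in bzip28-2. CML41, the amino acid transporter gene LHT7 and PCC1 were the 3 genes that in some mutant were called at neither 12 nor 24 h. LHT7 had a 12 h response of 1.05 (SE 0.22) in bzip60-2 and 3.24 (SE 0.38) in bzip28-2. Ion channel members, among them CNGC10, had medians of 2.39 in bzip60-2 and 2.81 in bzip28-2 at 12 h.

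Class III peroxidases, which work in the cell wall, gave the largest medians of any product class at 12 h in bzip60-2 (6.07), against 5.42 in bzip28-2 and 3.78 in Col-0. PRX52 had 291, 486 and 354 FPKM at 12 h after Tm in bzip60-2, against 6.61, 2.02 and 6.25 FPKM after DMSO. It had 109, 129 and 114 FPKM in bzip28-2, against 5.14, 1.06 and 0.672 FPKM, and 25.2, 34.2 and 37.9 FPKM in Col-0, against 1.1, 2.38 and 0.967 FPKM. The Tm libraries of the 3 genotypes did not overlap, in an order that was not tested against Col-0. Of 11 listed class III peroxidases, 7 in bzip60-2 and 6 in bzip28-2 were higher at 12 h, and at 24 h 7 were higher in bzip60-2, with 5 higher and 1 lower in bzip28-2.

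Beyond these classes, the listed pathways held few or none of the 150 genes. The lists are short and the 150 are a small part of the 21864 genes tested, so that absence says little about them. Over all genes at 12 h, 8.08% were called higher and 6.13% lower in bzip60-2, and 8.65% and 5.76% in bzip28-2. At 24 h, 5.36% were called higher in bzip60-2 and 3.93% in bzip28-2. Of 13 tested leaf senescence genes, 6 were higher and 1 lower in bzip60-2 at 12 h and 7 were higher and 1 lower in bzip28-2, SAG13 being the only member. Of 12 tested jasmonate and ethylene defence genes, 2 were higher and 2 lower in bzip60-2 at 12 h, and 2 were higher and 1 lower in bzip28-2. Mitochondrial stress genes were higher for 4 of 8 in bzip60-2 and 5 of 8 in bzip28-2, with 1 lower in each. ATG8 autophagy genes were higher for 3 of 9 in bzip60-2 and 4 of 9 in bzip28-2. For nitrogen remobilisation, 3 of 8 were higher and 1 lower in bzip60-2 and 4 were higher in bzip28-2, and for the abscisic acid response 3 of 8 were higher in bzip60-2 and 1 in bzip28-2. The median response at 12 h was -0.26 in bzip60-2 and -0.16 in bzip28-2 for 16 suberin genes and -1.45 and -0.25 for 8 iron deficiency genes. Of 8 genes of DNA damage and cell cycle arrest 2 were higher in bzip28-2 at 12 h, with a median of 0.43, against a median of 0.10 in bzip60-2. ER chaperones and foldases were all higher at 12 h, 17 of 17 in each mutant, and at 24 h 17 were higher in bzip60-2 and 6 in bzip28-2.

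**Figure D4:**
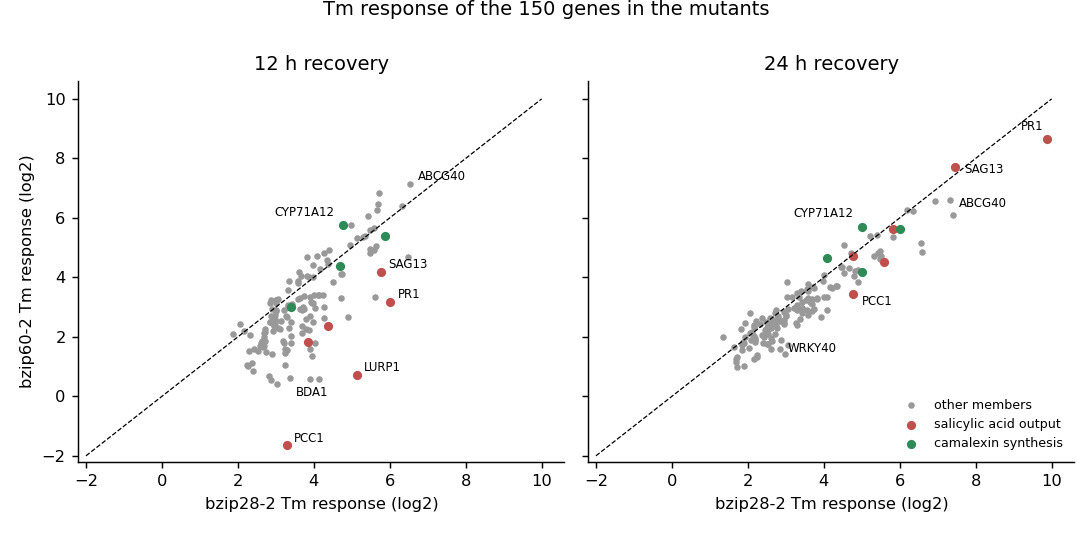
Tm response (log2 fold change) of each of the 150 genes in bzip60-2 (vertical axis) against that in bzip28-2 (horizontal axis) at 12 and 24 h, with equal responses on the dashed line. At 12 h 109 of the 150 points lie below the line, with PCC1 and LURP1 farthest from it, and at 24 h 116 do, closer to it. Over all genes tested the median difference was -0.0023 at 12 h and -0.009 at 24 h.

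The responses of the mutants were then compared with each other. At 12 h, 109 of the 150 genes had the smaller response in bzip60-2, a count that was not made over all genes. The median difference between bzip60-2 and bzip28-2 was -0.59 on the log2 scale, against -0.0023 over all genes tested. WRKY40 alone was called (limma on the log2 fold changes of the replicates, adjusted p under 0.05), with -1.63 (SE 0.13, adjusted p = 0.0368), where 10 of all genes were called in either direction (0.0366% of all genes lower and 0.00915% higher). This call was lost when any of the 6 replicates was left out, and the fold changes join Tm and DMSO libraries by replicate numbers that were not found to pair them. Without that joining 6 of the 150 genes were called, in 1 fit over all libraries 9, and with a mean FPKM of at least 1 it was 7. The shares of all genes called under these alternatives are not given here. With p under 0.05 before adjustment, 71 of the 150 genes were lower in bzip60-2, against 4.65% of all genes, and 6 were higher, against 2.72%. At an unadjusted p under 0.01 it was 49 lower and 2 higher, against 2% and 0.764% of all genes.

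The largest differences were -4.93 for PCC1, -4.40 for LURP1, -3.55 for AT3G22235, -3.34 for the ankyrin gene BDA1 and -2.85 for PR1, none of which passed the adjusted threshold. BDA1, named after its values were seen, had 24, 18.8 and 16.3 FPKM at 12 h after Tm in bzip60-2, against 18.4, 8.26 and 13.4 FPKM after DMSO, and 31.5, 26.6 and 23.6 FPKM in bzip28-2, against 2.71, 0.446 and 0.206 FPKM. On the other side stood AT1G26390 with 1.12 (adjusted p = 0.37), CYP71A12 with 1.00 (adjusted p = 0.13) and the lipase gene GLIP1 with 0.85. Salicylic acid output genes were thus among the most negative estimates, and a berberine and a camalexin enzyme were the most positive. Other genes of camalexin synthesis went the other way, with -0.50 for CYP71A13, -0.33 for PAD3 and -0.37 for GSTF6. The berberine enzymes AT1G26380 and AT1G26410 had 0.125 and 0.03.

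At 0 h none of the 150 genes was called by limma between the mutants, where 0.0915% of all genes were, and at an unadjusted p under 0.05 4 were higher and 3 lower in bzip60-2, against 2.86% and 8.17% of all genes. At 24 h none was called, where 0.00457% of all genes were, and the median difference was -0.31, against -0.009 over all genes. At an unadjusted p under 0.05, 15 genes were then lower in bzip60-2 and 2 higher, against 3.54% and 4.58% of all genes.

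Mock levels of the 150 genes at 12 h were also compared between the genotypes. The median mock level of the 150 genes was 4.23 FPKM at 0 h, 5.43 at 12 h and 2.57 at 24 h in bzip60-2, 2.66, 2.12 and 2.03 FPKM in bzip28-2, and 1.8, 1.8 and 1.77 FPKM in Col-0. The Col-0 mock libraries helped to choose the genes, and the choice favours low Col-0 mock levels, so the mutants are not to be read against Col-0 here. After Tm the median level at 12 h was 55.1 FPKM in bzip60-2, 42.7 FPKM in bzip28-2 and 33.1 FPKM in Col-0. The mock libraries enter both the level and the response, so the 2 measures are not independent.

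The mutants were compared directly at each level after these values had been seen. Limma called 0 of the 150 genes between the mock libraries of bzip60-2 and bzip28-2 at 12 h on the rule used for Tm against DMSO, where 0.032% of all genes were called. In 1 fit over all libraries, which shares its estimate of the spread, 45 of the 150 were called at 12 h, 16 at 0 h and 1 at 24 h. The share of all genes called in that fit is not given here, so these counts are not read as particular to the 150 genes. With p under 0.05 before adjustment, 104 of the 150 genes were higher in bzip60-2, against 8.2% of all genes, and the median difference was 0.75. The mock libraries of the mutants did not overlap for 104 genes, higher in bzip60-2, against 10.8% of all genes. At 0 h 0 genes were called, where 0.0229% of all genes were, and 44 were higher at an unadjusted p under 0.05, against 13.1%. At 24 h 0 were called, where 0.00457% were, and 8 were higher, against 3.39%.

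WRKY40 showed the smallest adjusted p among the mock differences at 12 h, with 1.98 (SE 0.16, limma adjusted p = 0.046). After Tm at 12 h 0 genes passed the same call, where 0.0595% of all genes did, and 54 were higher in bzip60-2 at an unadjusted p under 0.05, against 10.7%, with a median difference of 0.24. For CYP71A12 this Tm level difference was 1.00 (SE 0.06, adjusted p = 0.0068), just short of the fold limit.

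The time course after 12 h was tested within each mutant as the difference of the responses at 24 and 12 h (limma, adjusted p under 0.05). In bzip60-2, 7 of the 150 genes had a larger response at 24 h, against 2.14% of all genes, and 13 a smaller one, against 1.27%. Among the 7 were PCC1 with 5.07 (SE 0.74), LURP1 with 4.89 (SE 0.68), BDA1 with 3.77 (SE 0.28) and SAG13 with 3.51 (SE 0.59). The mock libraries of these 4 genes in bzip60-2 were all lower at 24 h than at 12 h. PCC1 mock libraries, for example, had 0.491, 0.767 and 0.514 FPKM at 24 h, and LURP1 mock libraries 0.934, 2.66 and 0.279 FPKM. The largest decrease was that of TPX2, a thioredoxin-dependent peroxidase named after its values were seen, by -3.62 (SE 0.24). TPX2 had 108, 91.9 and 70.8 FPKM after Tm at 24 h in bzip60-2, against 26.3, 23.3 and 29.5 FPKM after DMSO, and 232, 346 and 297 FPKM at 12 h, against 4.17, 6.93 and 7.84 FPKM.

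In bzip28-2, 2 genes had a larger response at 24 h, against 0.663% of all genes, and 5 a smaller one, against 0.672%. The 2 were PR1 with 3.85 (SE 0.39) and ARD3, an enzyme of methionine salvage, with 2.44 (SE 0.32). WRKY30 decreased in both mutants, by -2.14 (SE 0.17) in bzip28-2 and -1.23 (SE 0.22) in bzip60-2. It had 8.11, 7.71 and 11.6 FPKM after Tm at 24 h in bzip60-2, against 0.831, 1.26 and 1.65 FPKM after DMSO, and 6.84, 7.24 and 6.08 FPKM in bzip28-2, against 1.06, 0.901 and 0.46 FPKM. These counts at 24 against 12 h were not stable. Leaving out any replicate of either time-point gave 0 to 3 called genes in bzip60-2, where all 6 had given 20. In bzip28-2, where all 6 had given 7, it was 10 without 24 h replicate 2, 1 without 12 h replicate 1 and 0 without each of the others. The response was larger at 24 h than at 12 h for 67 of the 150 genes in bzip60-2 and for 47 in bzip28-2, which was not tested. In Col-0 it was 99, but those responses chose the genes, so that count is not to be read against the mutants.

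**Figure D5:**
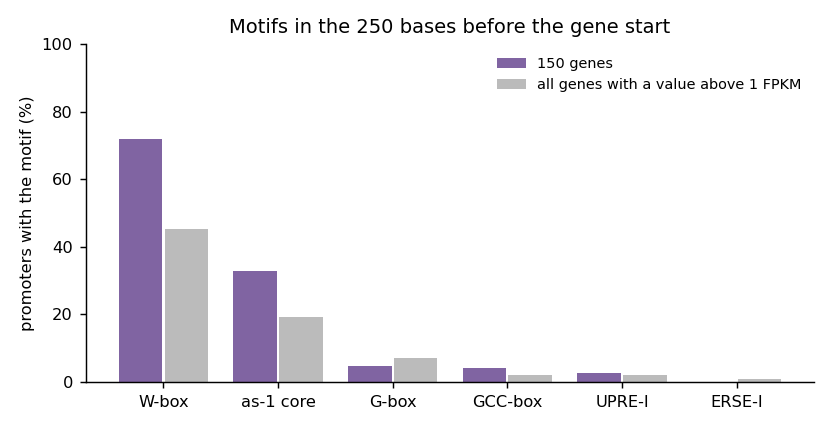
Share of promoters (percent, vertical axis) that hold each motif at least once, on either strand, in the 250 bases before the gene start, for the 150 genes (purple) and for all 21627 tested genes with a window (grey). The W-box core is in 72.0% of the 150 promoters and in 45.3% of all promoters. ERSE-I is in none of the 150 and in 0.8% of all promoters.

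Promoters of the 150 genes were searched for 6 motifs on both strands. In the 250 bases before the gene start, the W-box core TTGAC was in 108 of 150 promoters (72.0%), against 45.3% of the 21627 genes with a window, and the as-1 core TGACG in 49 (32.7%), against 19.2%. The letters TTGACG hold both motifs and count for both. In the 1000 bases before the start, the W-box core was in 96.0% of the 150 promoters, against 88.1%, with 3.39 cores on average, against 2.30, and 66.0% of the promoters had 3 or more, against 40.4%. The as-1 core was there in 64.7%, against 55.0%.

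The elements of the UPR were rare in all promoters, so their small counts among the 150 say little about these genes. ERSE-I, which is CCAAT, then any 10 bases, then CACG, was in none of the 150 promoters in either window, against 0.8% of all promoters in 250 bases and 1.6% in 1000. UPRE-I, which is TGACGTG followed by A or G and so holds the as-1 core, was in 2.7% of the short windows, against 2.1%, and in 4.0% of the long ones, against 4.7%. The G-box CACGTG was in 4.7% of the short windows, against 7.1%, and in 10% of the long ones, against 15.6%. The GCC-box GCCGCC was in 4.0%, against 1.9%, and in 7.3%, against 8.8%. A match is a run of letters in a window, and these shares were not tested.

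Binding of the UPR factors was taken from the deposited ChIP-seq peak lists, 1 per protein and time-point. None of the 150 genes was the gene of a peak at 0 or 12 h for either protein. The 0 h lists named 0.38% (bZIP28) and 0.9% (bZIP60) of the 21864 genes, and the 12 h lists 0.15% and 0.06%. At shares this low, that absence says little about the 150 genes. At 24 h the bZIP28 list named 9 of the 150 genes (6.0%, against 1.35% of all genes) and the bZIP60 list 8 (5.33%, against 0.57%). Together 15 genes were named (10%, against 2.25%), and 2, GSTF6 and ZCF37, by both proteins. The lists hold peaks reproducible over 2 replicates, with no replicate of their own, and the shares were not tested.

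For bZIP60 all 8 peaks lay in promoters: at GSTF6, the zinc finger gene STZ, ZCF37, the hydrolase genes AT1G68620 and AT5G24210, GSTU11, the ubiquitin ligase gene CNI1 and AT5G44990. The peak with the highest score, the signal value given by MACS2, was that of GSTF6 at chr1:660609-662915 (6.62), which ranked 23 of 170 peaks in its list. Of all peaks in that list, 81.8% were in promoters. For bZIP28, 4 genes had promoter peaks: GSTF6, PCR1, ZCF37 and NHL3. The others had peaks in the 3′ UTR (LURP1, WRKY70, YLS5 and AT1G26410) or in an exon and downstream (CYP71A12), in a list with 72.2% of its peaks in promoters. The GSTF6 peak of bZIP28 at chr1:660725-661645, with a score of 5.22, lay inside that of bZIP60.

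The genes of a peak are set here beside the 111 of all 150 genes that were called in all 4 comparisons of the mutants. GSTF6, ZCF37, GSTU11, AT1G68620, AT5G24210, CNI1, AT5G44990, NHL3, PCR1 and YLS5 were each called higher at 12 and 24 h in both mutants (limma), as were WRKY70, CYP71A12 and AT1G26410. STZ missed the call in bzip60-2 at 24 h, with 1.38 (SE 0.27, adjusted p = 0.014), and LURP1 in bzip60-2 at 12 h. Among the peaks at the 150 genes, ERSE-I was found in 1, that of GSTU11, and UPRE-I in 1, that of AT1G68620. Both are bZIP60 peaks, from a 24 h list in which 5.3% of all peaks held ERSE-I and 11.2% held UPRE-I. They were 2340 and 2381 bases wide, where the median of that list was 1121. The bZIP28 peaks at the 150 genes held neither motif. With so few peaks and such shares in the list, these counts say little about the 150 genes.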

How the data were processed

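Gene expression was deposited by the authors as FPKM per gene and library. Reads (stranded mRNA libraries, 50-nt single-end by the study's methods) were quality-checked with FastQC 0.11.5, trimmed with Cutadapt 1.8.1, aligned to TAIR10 with TopHat 2.0.14 and Bowtie 2.2.4 and quantified with Cufflinks 1.3.0. FPKM is scaled to library size and gene length, so raw depth is unknown and low genes are less precise. The deposited peak score is the signalValue of MACS2 2.1.2, after alignment with Bowtie 1.1.2 and SAMtools 1.8, and the lists hold peaks reproducible over 2 replicates after the authors removed peaks that overlapped a DMSO peak, apart from those well above it.

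FPKM + 1 was log2-transformed, which understates changes of low genes. The 21864 genes that passed an FPKM of 1 in some library, all 150 included, were tested with limma 3.58.1 in R 4.3.3, with a trend and Benjamini-Hochberg adjustment over all of them. Tm against DMSO was called where the adjusted p was under 0.01 and the log2 fold change beyond 1 in either direction, as were level differences between mutants, and differences of responses at 0.05 on log2 fold changes per replicate number. Labels do not say whether replicates were separate cultures, so p-values measure the spread between these samples. Promoter windows came from RefSeq gene starts of TAIR10.1. Python 3.11.15, pandas 2.3.3, numpy 2.4.6, scipy 1.17.1 and matplotlib 3.10.9 were used, and the tests were tested on simulated data.

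The members and lists (those whose counts are given, from salicylic acid to tissue markers) were chosen with earlier results of these data known. Genes were named by rank at both ends of the rule, list membership, calls at 0 h or between mutants, missing calls in a mutant, a peak, or a symbol starting with WRKY, NAC, ERF, MYB or bHLH. AT3G22235, BDA1, AT1G26390, GLIP1, TPX2 and ARD3, the product classes, the counts without overlap and the comparisons of mutant levels were chosen after values were seen. Alternatives were another pseudocount, scaling, filters, trend, pooled fits, the replicate block and left-out replicates.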

Additional observations from a re-analysis of the deposited data

Results flagged for a closer look

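Responses that differed between times or mutants are given here as values. The response at 12 h differed from that at 0 h for 137 of the 150 genes in bzip60-2 and 149 in bzip28-2 (limma, adjusted p under 0.05), against 22% and 31.2% of all genes. The response at 24 h differed from that at 12 h for 20 genes in bzip60-2 and 7 in bzip28-2, against 3.4% and 1.34% of all genes, and leaving out a replicate gave 0 to 3 and 0 to 10. Between bzip60-2 and bzip28-2 the 12 h response differed for 1 gene, WRKY40, by -1.63 (SE 0.13, limma adjusted p = 0.0368).

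For PCC1 at 12 h every fold change of Tm over the DMSO library of the same number was negative in bzip60-2 and positive in bzip28-2, a difference of -4.93 (SE 1.15, limma adjusted p = 0.278). For AT3G22235 at 0 h the fold changes formed in this way were all positive in bzip60-2 and all negative in bzip28-2, a difference of 1.59 (SE 0.71, limma adjusted p = 0.475). Its 0 h levels were low, with 1.11, 0.99 and 2.95 FPKM after Tm in bzip60-2, against 1.09, 0.937 and 0.534 FPKM after DMSO, and 0.548, 0.298 and 0.633 FPKM in bzip28-2, against 7.87, 1.13 and 0.767 FPKM. The Tm and DMSO libraries of AT3G22235 overlapped in bzip60-2, the numbers were not found to pair libraries, and neither difference passed the adjusted threshold.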

How the results depend on the processing

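Counts of genes called at 12 h and the rise from 0 to 12 h stayed within 1.5 times under every alternative run, and other counts moved more. The cause was not tested. Shares of all genes called under each alternative are not given here, so the counts below are not read as particular to the 150 genes. With a pseudocount of 0.1 the rule shared 92 of its 150 genes with the list used, 1 gene was called at 0 h in bzip28-2, 0 differed between the mutants at 12 h, 10 and 0 differed between 24 and 12 h in bzip60-2 and bzip28-2, and 1 differed in Tm level at 12 h. Without a filter on low values 89 were called in bzip28-2 at 24 h, 0 differed between mutants at 12 h, and 6 and 2 differed between 24 and 12 h in bzip60-2 and bzip28-2. With a mean FPKM of at least 1 these were 7 between mutants, 31 and 13 between times and 2 in Tm level. Scaled FPKM, and limma without a trend, each gave 2 between mutants at 12 h.

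In 1 fit over all libraries 2 genes were called at 0 h in bzip28-2, 9 and 3 differed between the mutants at 12 and 24 h, 41 and 26 between 24 and 12 h in bzip60-2 and bzip28-2, 16, 45 and 1 in mock level at 0, 12 and 24 h, and 2 in Tm level. At an unadjusted p under 0.01, 2, 51 and 6 genes differed between the mutants at 0, 12 and 24 h, and 39 and 21 between times in bzip60-2 and bzip28-2. At an adjusted p under 0.05, 1 gene differed in mock level at 12 h and 4 in Tm level.

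Leaving out a replicate gave 74 to 144 called genes in bzip60-2 at 24 h, 18 to 144 in bzip28-2 at 24 h, 0 in each case between the mutants at 12 h, and 0 to 3 and 0 to 10 between 24 and 12 h in bzip60-2 and bzip28-2. The replicate numbers did not pair the libraries, since 5 of 27 pairs correlated above 0.1 (-0.282 to 0.133) and 9 of 27 fitted best with their own number. With a replicate block 68 genes were called in bzip60-2 and 1 in bzip28-2 at 24 h. With no replicate block in the comparisons of responses, 6 differed between the mutants at 12 h and 36 and 16 between times in bzip60-2 and bzip28-2. Over the named genes, 2240 of 2632 alternatives kept the main result, whether called or not called, 350 lost the call and 42 gained it. Among changes called in the main fit, 0 turned the direction. Where the main fit made no call, the direction was not compared. FPKM gives no raw depth, which limits what low genes can show.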
